A study of Mus musculus with 18 samples.

Results

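The mevalonate pathway builds isoprenoid units from acetyl-CoA, and 8 genes of it were examined here in mouse frontal cortex: Acat2, Hmgcs1, Mvk, Pmvk, Mvd, Idi1, Fdps and Ggps1. They were taken by gene symbol from a table of 55487 genes, in the order of the reactions, and all 8 had enough reads to be tested. Frontal cortical RNA came from 18 mice aged 9 to 10 months, 6 of each genotype with 3 females and 3 males. APP/PS1 mice carry the APPswe transgene together with a further transgene, and APP/PS1/FTnKO mice, called knockout mice here, carry the same transgenes and lack farnesyltransferase (FT) in forebrain neurons, through floxed alleles of its β-subunit and a Cre recombinase under the CamKIIα promoter. Per the study's methods, the APP/PS1 and WT mice were littermates with the same homozygous floxed alleles and no Cre, whereas the labels call the WT mice C57BL/6J. FT knockout mice without the transgenes were not analysed here. Because Cre acts in forebrain neurons and the RNA came from whole cortical tissue, fewer cells of a type and less RNA per cell cannot be told apart in any value below.

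Acat2 encodes the cytosolic thiolase that joins acetyl-CoA molecules, and Hmgcs1 the cytosolic synthase that makes HMG-CoA. Mvk and Pmvk encode the kinases that phosphorylate mevalonate in turn, Mvd the decarboxylase that yields isopentenyl pyrophosphate, and Idi1 the isomerase that interconverts isopentenyl and dimethylallyl pyrophosphate. Fdps makes farnesyl pyrophosphate, the lipid that FT attaches to proteins such as Ras and also the last intermediate shared with cholesterol synthesis, and Ggps1 extends it to geranylgeranyl pyrophosphate, the lipid of Rab proteins. Transcription of many genes of cholesterol synthesis is raised by SREBP-2, which binds the sterol regulatory element when membrane sterol is low. In the adult brain cholesterol is made locally, by astrocytes and oligodendrocytes above all.

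WT mouse 19622 was treated apart. Its mean distance to the other WT mice was 4.31, in log2 units over the 500 genes that differed most in each pair. For the other 17 it was 1.92 to 2.51, each to the other mice of its own genotype, with 19622 counted among WT. The summed CPM of 19622 (reads per gene scaled to a common library size) were 0.0503 for 2 forebrain markers, against 14 to 22.5 in the others, and 2390 for 5 cerebellum markers, against 23.3 to 50.2. Emx1 and Emx2, the forebrain markers, thus go against its label of frontal cortex, while the other 17 mice had them. The fits below use 17 mice (5 WT), and values with 19622 are given where a call or a sign turned and for the leading members. Total counts were 15925432 to 21030935 per mouse. App, which the APP transgene adds to, had 2900 ± 283 CPM in APP/PS1 (SD, n = 6), 2970 ± 517 in knockout (n = 6) and 1530 ± 51.2 in WT mice (n = 5), and Prnp, the gene of the prion protein, 2120 ± 124, 2190 ± 317 and 702 ± 41.0 in the same order. Fntb, the gene of the deleted β-subunit, had 11.8 ± 2.76 CPM in knockout, 20.2 ± 8.06 in APP/PS1 and 22.2 ± 8.60 in WT mice, and its counts come from all cells of the tissue.

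Promoter sequences are shown for Acat2, Hmgcs1 and Mvd, the members with the smallest p between knockout and APP/PS1 mice, since the sterol regulatory element is the motif by which SREBP-2 acts. RefSeq promoters (build GRCm38.p6) were given for 7 of the 8 members, with 2 for Pmvk, and not for Fdps. Each sequence below holds the 250 bases before the transcription start, 5′ to 3′ on the strand of the gene, and the capitals mark every match, on either strand, to TCACNCCAC (sterol regulatory element), CCAAT (bound by NF-Y), GGGCGG (bound by Sp1) or TCACGTGA (an E-box).
Acat2 (chr17:12960726-12960975, minus strand): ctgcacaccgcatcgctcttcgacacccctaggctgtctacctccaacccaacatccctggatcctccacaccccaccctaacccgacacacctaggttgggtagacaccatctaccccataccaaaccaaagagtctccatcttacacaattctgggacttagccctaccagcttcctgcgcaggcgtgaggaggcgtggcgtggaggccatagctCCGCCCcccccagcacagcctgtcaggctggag
Hmgcs1 (chr13:119690101-119690350, plus strand): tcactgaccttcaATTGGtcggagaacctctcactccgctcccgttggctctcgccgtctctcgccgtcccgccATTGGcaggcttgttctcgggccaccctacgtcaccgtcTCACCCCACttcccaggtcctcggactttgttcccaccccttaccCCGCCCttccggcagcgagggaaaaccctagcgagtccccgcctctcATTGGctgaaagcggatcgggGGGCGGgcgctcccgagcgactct
Mvd (chr8:122443423-122443672, minus strand): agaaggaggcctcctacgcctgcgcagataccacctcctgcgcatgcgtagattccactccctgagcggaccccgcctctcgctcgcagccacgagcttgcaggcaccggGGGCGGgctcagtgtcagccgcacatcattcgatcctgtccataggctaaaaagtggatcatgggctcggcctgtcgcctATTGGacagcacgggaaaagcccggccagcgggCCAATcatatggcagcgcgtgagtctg
The letters TCACNCCAC were present in 1 of the 8 promoters, that of Hmgcs1, as TCACCCCAC 137 to 129 bases before the start, and in 1.05% of 32851 promoters of the same length. CCAAT was in 6 of the 8, those of Hmgcs1, Mvk, Mvd, Idi1, Ggps1 and the first of Pmvk, with 33.8% of all promoters holding it. GGGCGG was in 5 of the 8, those of Acat2, Hmgcs1, Mvk, Mvd and Idi1, with 32.7% of all promoters holding it. TCACGTGA was in 0 of the 8 and in 0.785% of all promoters. None of the marked matches in these 3 promoters overlapped. A match is a description of the letters only, and other forms of these elements were not searched.

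Per kilobase of annotated exon, the members differed widely in level, with Hmgcs1 highest and Fdps lowest in each genotype. In WT mice Hmgcs1 had 58.4 ± 5.15 CPM per kb (SD, n = 5), Pmvk 18.3 ± 1.21, Acat2 13.3 ± 0.811 and Ggps1 11 ± 0.908. Below these lay Mvd with 10.4 ± 1.02 CPM per kb, Mvk with 7.88 ± 0.530, Idi1 with 3.78 ± 0.592 and Fdps with 0.400 ± 0.0819. Ggps1 and Mvd, neighbours in this order, differed by less than their SD, and their order was the opposite in APP/PS1 mice, where Mvd had 11.8 ± 1.92 and Ggps1 11 ± 0.426 CPM per kb (n = 6). In APP/PS1 mice Pmvk (19.4 ± 1.43) and Acat2 (16.4 ± 1.95) also lay within the sum of their SDs. The length used is the union of all annotated exons, which exceeds that of the principal transcript by a varying amount. It was 2675 against 1660 bases for Mvk and 4208 against 1382 for Fdps, so the order of the middle members depends on the length chosen.

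**Figure D1:**
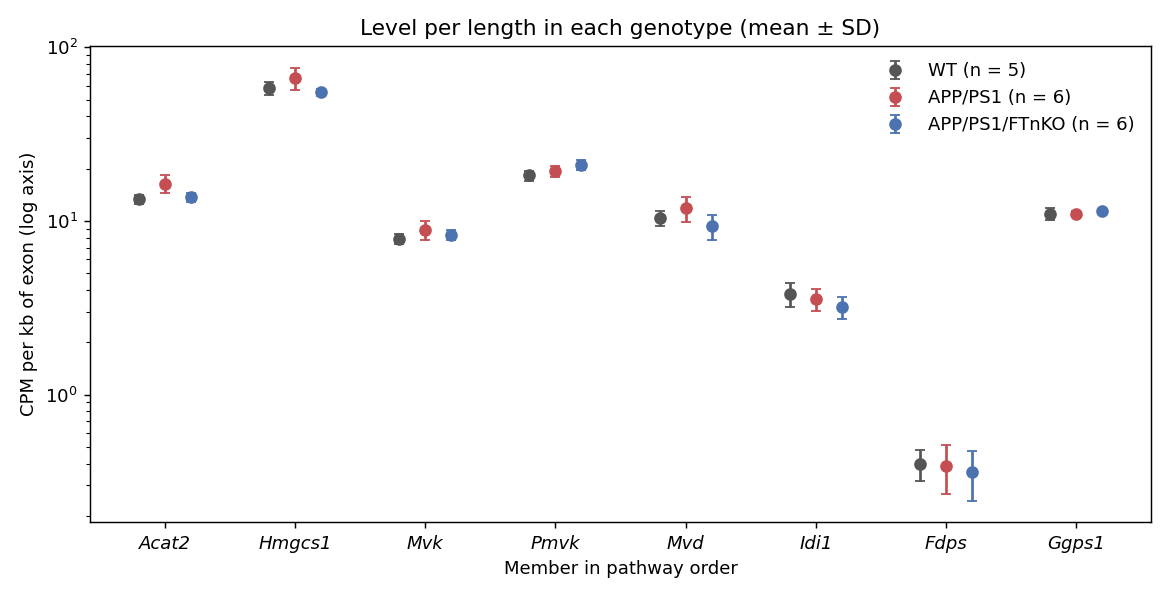
CPM per kb of annotated exon on a log axis for the 8 members in pathway order, as mean ± SD in 5 WT, 6 APP/PS1 and 6 knockout mice. Hmgcs1 lies above all other members and Fdps, at 0.360 to 0.400 CPM per kb, below them in each genotype.

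The low level of Fdps has to be read with its annotation. Fdps (chr3:89093588-89101959, minus strand, GRCm38) had 16 to 41 reads per mouse in the 17 mice and 10 in 19622. In the annotation, 1124 of the 1382 bases (81.3%) of its principal transcript also lie in exons of Gm43738, a protein-coding gene on the same strand, and the row of Gm43738 held 0 reads in every mouse. Gm3571, a processed pseudogene on chromosome 10 that shares stretches of 150 bases with Fdps, had 53 to 123 reads, more than Fdps itself. The sources used here do not say how reads that fall in more than 1 gene were counted, and the part of this in the low level was not tested. The row of Fdps is therefore an uncertain measure of its transcript, and its values below carry wide intervals.

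By exact letters, Fdps held 17.9% of its distinct 150-base stretches in common with other genes, and 2 other members held similar shares. Acat2 (chr17:12942890-12960747) had 19.9% in common, chiefly the near-copy Acat3, which had 93 to 149 reads in the 17 mice. Idi1 (chr13:8885501-8892451) had 18.8% in common, chiefly with the pseudogene Gm13502, whose row held 0 to 4 reads in the 17 mice. Hmgcs1 (chr13:119690379-119708260) had 6.9%, all with the antisense gene Gm48342, and Ggps1 (chr13:14050659-14063488) 1.8%, all with Arid4b on the opposite strand. Mvk (chr5:114444269-114460591), Pmvk (chr3:89454541-89469013) and Mvd (chr8:122433601-122443422) shared none.

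The comparison of knockout with APP/PS1 mice sets mice with neuronal FT deleted against mice with FT, both with the transgenes. Only the knockout mice carry Cre, so the loss of FT and the presence of Cre cannot be told apart. The largest estimates were those of the first enzymes of the pathway and of the decarboxylase, with a fold (knockout over APP/PS1) of 0.837 for Acat2, 0.825 for Hmgcs1 and 0.788 for Mvd. None of the 8 members passed the FDR threshold of 0.05 in edgeR's quasi-likelihood test, while 0.327% of all 17414 genes passed it. At an unadjusted p under 0.05, 3 of 8 members were lower and 0 higher, against 5.69% and 5.82% of all genes. DESeq2's Wald test, with 1.77% of its genes called, called 2 members, Acat2 (FDR = 0.029) and Hmgcs1 (FDR = 0.0139), but 0 with all 18 mice (FDR = 0.186 and 0.375). On 17 mice DESeq2 gave no FDR for Fdps in this comparison, so Fdps could not be called there. With all 18 mice in edgeR the FDR of Acat2 was 0.456 and that of Hmgcs1 0.611, with log2 fold changes of -0.26 and -0.28. The added mouse 19622 is WT and in neither group compared here, but it enters the spread that the 3 genotypes share. The common dispersion, edgeR's measure of that spread over all genes, was 0.0171 with 17 mice and 0.04 with 18. The median log2 fold change was -0.13 over the 8 members and -0.0016 over all genes tested.

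Acat2 had between 31.4 and 37.7 CPM in the 6 knockout mice (median 35.1) and between 34.6 and 47.4 in the 6 APP/PS1 mice (median 43.5). The ranges overlapped in the APP/PS1 males 16975 (34.6) and 19619 (36.7), and the other 4 APP/PS1 mice lay above every knockout mouse. The log2 fold change of Acat2 was -0.26 (SE 0.07, 95% interval -0.40 to -0.12, FDR = 0.121). Without APP/PS1 mouse 16975 the value was -0.30 and passed the threshold (FDR = 0.0452).

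Hmgcs1 had 242 to 276 CPM in knockout mice (median 249) and 268 to 393 in APP/PS1 mice (median 296). The groups overlapped by 1 mouse on each side, knockout mouse 19720 (276) and APP/PS1 mouse 19553 (268), and APP/PS1 male 19744 lay far above the rest at 393. Its log2 fold change was -0.28 (SE 0.07, interval -0.42 to -0.13, FDR = 0.0986), and -0.21 (SE 0.05, FDR = 0.124) without 19744. With RIN, the RNA integrity number, as a covariate Hmgcs1 passed the threshold (FDR = 0.0336) and Acat2 did not (FDR = 0.0709), and in mice with RIN of 8 or more neither did (FDR = 0.231 and 0.192). The median RIN was 8.2 in APP/PS1 and 8.6 in knockout mice.

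Mvd had 13.9 to 21.3 CPM in knockout mice (median 16.6) and 17.1 to 27.8 in APP/PS1 mice (median 22.3). The knockout mice 18943 (21.3) and 19720 (20.2) and the APP/PS1 mice 19619 (17.1) and 19553 (19.7) made up the overlap. Its log2 fold change was the largest of the 8 in size but also less precise than those of Acat2 and Hmgcs1, at -0.34 (SE 0.12, interval -0.59 to -0.10, FDR = 0.247, and 0.643 with all 18 mice).

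Mvk, Pmvk and Idi1 had estimates nearer to 0. Mvk had 20.4 to 24.2 CPM in knockout mice (median 22.2) and 18.8 to 26.6 in APP/PS1 mice (median 24.8), the former range lying within the latter, and a log2 fold change of -0.09 (interval -0.26 to 0.08, FDR = 0.712). Pmvk, which acts on the product of Mvk, had the opposite sign, with 33.4 to 39.7 CPM (median 35.7) against 30.2 to 36.9 (median 32.4) and a log2 fold change of 0.12 (interval -0.01 to 0.24, FDR = 0.468). Idi1 had 8.53 to 13.0 CPM (median 11.1) against 9.73 to 14.3 (median 12.4) and a log2 fold change of -0.15 (interval -0.41 to 0.11, FDR = 0.688). Single mice moved both Mvk and Idi1 by more than 1.5 times, Mvk to -0.15 without APP/PS1 mouse 19619 and -0.06 without APP/PS1 mouse 19554, and Idi1 to -0.08 without knockout mouse 19394 and -0.09 without APP/PS1 mouse 19723. In mice with RIN of 8 or more, Mvk was -0.005.

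The prenyl transferases at the end of the pathway had intervals that held 0. Fdps had 0.891 to 1.98 CPM in knockout mice (median 1.72) and 0.956 to 2.23 in APP/PS1 mice (median 1.61). Its interval, from -0.64 to 0.43 around a log2 fold change of -0.11 (FDR = 0.915), also holds the estimate of Mvd. Summed with the 4 pseudogenes that share stretches of 75 bases with it, a choice made after seeing the data, Fdps had a log2 fold change of -0.36 (SE 0.14, interval -0.64 to -0.07, FDR = 0.319), to which Gm3571 gave most reads (-0.46, SE 0.16, FDR = 0.265). Ggps1 was the most precisely measured, with 51.3 to 55.7 CPM (median 54.1) against 48.7 to 54.3 (median 52.2) and a log2 fold change of 0.05 (interval -0.05 to 0.15, FDR = 0.752), so that a change as large as that fitted for Hmgcs1 lies outside its interval.

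**Figure D2:**
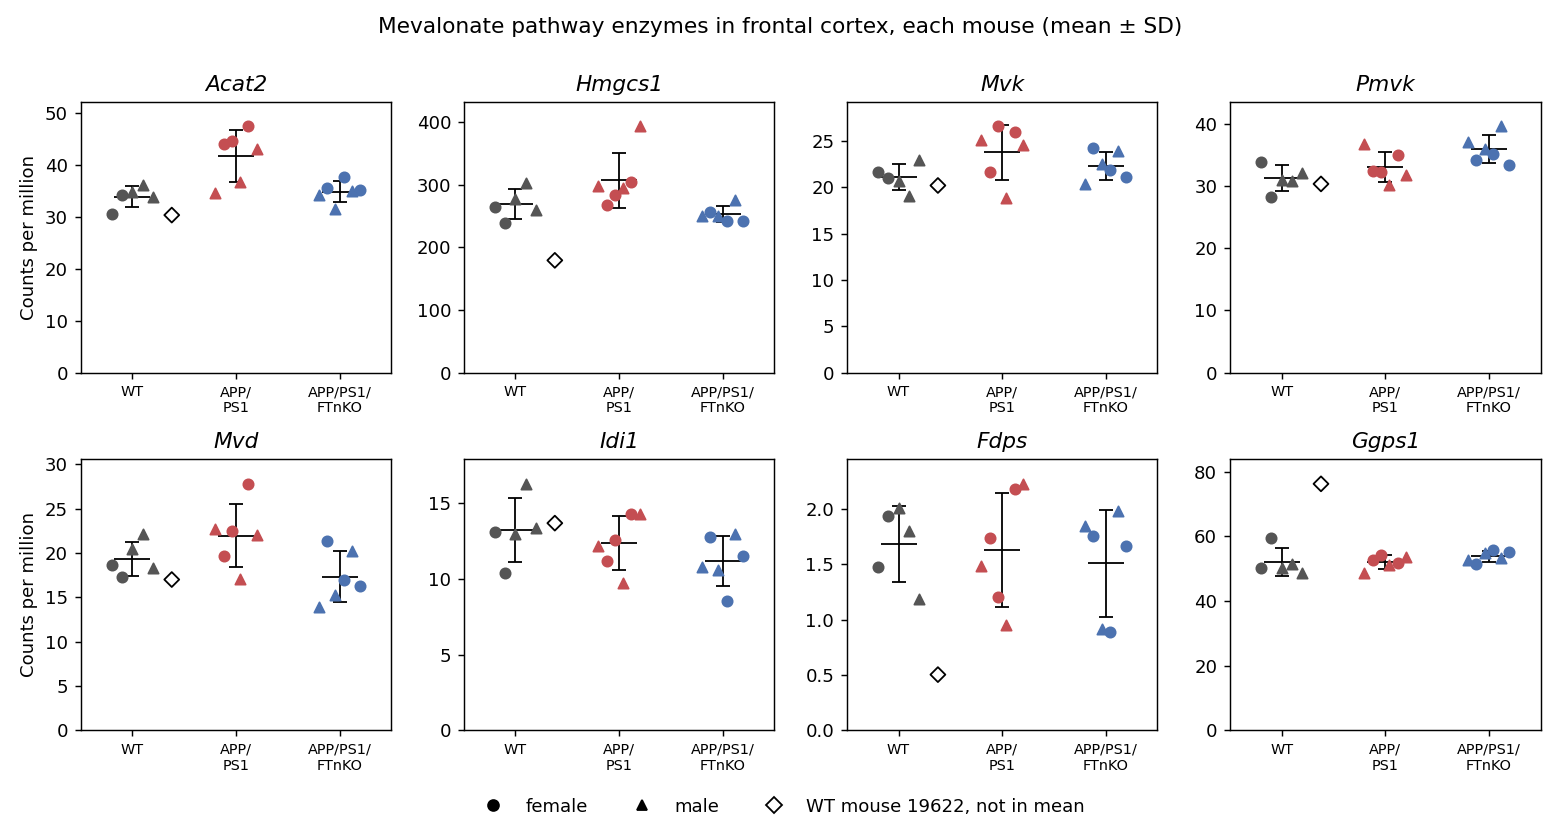
CPM of each member in each mouse (circles female, triangles male, bars mean ± SD), with WT mouse 19622 as an open diamond outside the mean. For Acat2 and Hmgcs1 most APP/PS1 mice lie above the knockout mice (31.4 to 37.7 and 242 to 276), and for Ggps1 the 17 mice share 48.6 to 59.4.

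The comparison of APP/PS1 with WT mice sets mice with the transgenes against mice without them, none carrying Cre. Acat2 and Hmgcs1 had the largest estimates, with a fold (APP/PS1 over WT) of 1.22 and 1.15. RIN was 7.7 to 8.7 in APP/PS1 mice (median 8.2) and 8.5 to 8.8 in WT mice (median 8.7), and its part in these values, like that of any difference in strain, was not tested beyond the 2 fits that use RIN, given below. None of the 8 members passed the FDR threshold in edgeR, against 1.5% of all genes. At an unadjusted p under 0.05, 2 of 8 were higher and 0 lower, against 7.91% and 6.05% of all genes. DESeq2, with 2.69% of its genes called, called 1 member, Acat2 (FDR = 0.0113). The median log2 fold change over the 8 was 0.13, and -0.0023 over all genes. The APP/PS1 mice are the same animals as in the comparison above, so a high or low value among them enters both, with opposite sign.

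Acat2 had 30.5, 33.7, 34.2, 34.8 and 36.0 CPM in the 5 WT mice, below 5 of the 6 APP/PS1 mice, and the APP/PS1 mouse 16975 (34.6) lay among them. Its log2 fold change was 0.29 (SE 0.07, interval 0.14 to 0.44, FDR = 0.0535). The FDR of Acat2 was 0.0206 to 0.2 with each mouse left out, under 0.05 without 16975 (0.0206), APP/PS1 mouse 19619 (0.0388) or knockout mouse 18973 (0.0493) and not without any of the other 14. It was 0.124 in a fit of these genotypes alone, 0.197 with RIN as a covariate, 0.0675 in mice with RIN of 8 or more (log2 fold change 0.33), and 0.0346 with all 18 mice, where 19622 had 30.3 CPM and 1.2% of all genes were called. Hmgcs1 had 239, 259, 264, 277 and 303 CPM in the WT mice, overlapping with all APP/PS1 mice but 19723 (304) and 19744, and a log2 fold change of 0.20 (SE 0.07, interval 0.05 to 0.36, FDR = 0.208). Without 19744 the log2 fold change of Hmgcs1 was 0.13 (SE 0.05, FDR = 0.233), so that this 1 mouse moved it by more than 1.5 times, and with all 18 mice it was 0.28 (SE 0.09, FDR = 0.189). With all 18 mice 3 of 8 members were at an unadjusted p under 0.05, the third being Mvk (0.19, FDR = 0.292).

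Mvk had 19.1, 20.7, 21, 21.7 and 22.9 CPM in WT mice and a log2 fold change of 0.17 (interval -0.01 to 0.34, FDR = 0.377), with 4 of the 6 APP/PS1 mice above every WT mouse. Mvd had 17.3, 18.3, 18.6, 20.4 and 22.1 CPM, all within the range of APP/PS1 mice, and 0.17 (interval -0.08 to 0.43, FDR = 0.546), or 0.10 without APP/PS1 mouse 19723. In mice with RIN of 8 or more, Mvk was 0.11. Pmvk had 28.3, 30.9, 31.1, 32.2 and 34 CPM and a log2 fold change of 0.09 (interval -0.04 to 0.22, FDR = 0.548), which was 0.056 to 0.136 with each mouse left out (lowest without APP/PS1 mouse 16975, highest without WT mouse 18944) and 0.038 with RIN as a covariate. The later members had small negative estimates, -0.08 for Idi1 (interval -0.35 to 0.18, FDR = 0.814), -0.04 for Fdps (interval -0.61 to 0.52, FDR = 0.961) and -0.004 for Ggps1 (interval -0.11 to 0.10, FDR = 0.982). Idi1 had 10.4, 13.0, 13.1, 13.4 and 16.3 CPM in WT mice, Fdps 1.19, 1.48, 1.80, 1.94 and 2.01, and Ggps1 48.6, 50.2, 50.2, 51.5 and 59.4, and each of these overlapped with both other genotypes. With each mouse left out the log2 fold change of Idi1 was -0.161 to -0.003, lowest without 19053 of the WT mice and nearest to 0 without 19619 of the APP/PS1 mice.

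The comparison of knockout with WT mice, which shares its groups with both comparisons above, gave a different leading member. Pmvk had 33.4 to 39.7 CPM in knockout mice, of which 5 of 6 lay above every WT mouse, and a log2 fold change of 0.21 (SE 0.06, interval 0.08 to 0.34, FDR = 0.0697, and 0.0777 with all 18 mice). No member passed the FDR threshold in edgeR, against 3.87% of all genes, and Pmvk alone had an unadjusted p under 0.05, against 11.3% of all genes higher and 10.9% lower. DESeq2, with 8.41% of its genes called, called Pmvk (FDR = 0.0327). Acat2 and Hmgcs1, the members with the smallest p in the other comparisons, had log2 fold changes of 0.03 (interval -0.12 to 0.18, FDR = 0.843) and -0.07 (interval -0.22 to 0.08, FDR = 0.596). Mvk had 0.08 (FDR = 0.624), Mvd -0.17 (interval -0.43 to 0.09, FDR = 0.440), Idi1 -0.23 (interval -0.50 to 0.04, FDR = 0.296), Fdps -0.15 (FDR = 0.778) and Ggps1 0.04 (FDR = 0.644). With each mouse left out these small estimates moved by more than 1.5 times, Mvd to -0.107, Idi1 to -0.152 and Hmgcs1 to -0.038 without WT mouse 19718, Mvk to 0.047 without knockout mouse 19720 and 0.118 without WT mouse 19721, Fdps to -0.034 without knockout mouse 18973, and Ggps1 to 0.097 without WT mouse 19053, while Acat2 turned to -0.028 without WT mouse 18944. The full ranges were -0.266 to -0.034 for Fdps, 0.021 to 0.097 for Ggps1, -0.028 to 0.066 for Acat2 and 0.175 to 0.253 for Pmvk. The median over the 8 was -0.02, and 0.0053 over all genes. The ranges of 2 genotypes were apart in 0 of 8 members in any of the 3 comparisons, against 0.373% of all genes lower and 0.597% higher between knockout and APP/PS1, 0.695% and 1.71% between APP/PS1 and WT, and 2.85% and 2.75% between knockout and WT mice.

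**Figure D3:**
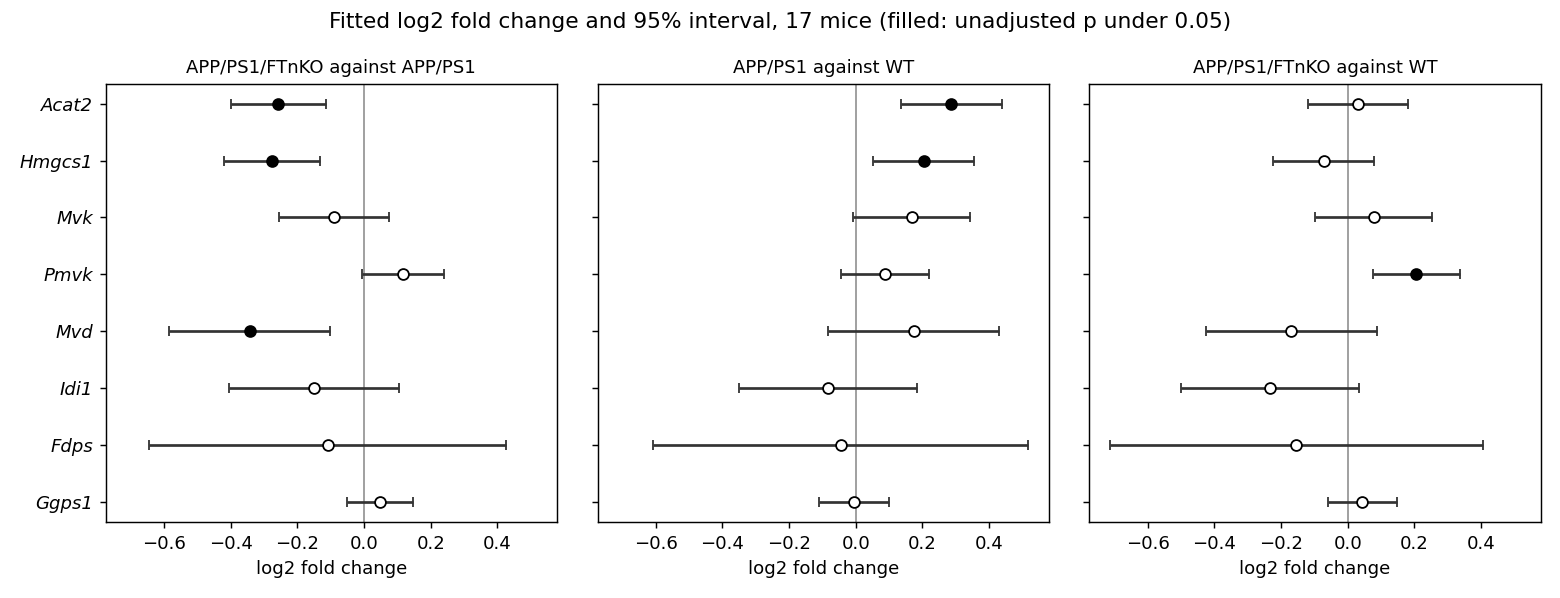
Log2 fold change with its 95% interval for the 8 members in the 3 comparisons (edgeR, 17 mice), filled where the unadjusted p was under 0.05. Acat2, Hmgcs1 and Mvd are filled and below 0 in the left panel, Acat2 and Hmgcs1 filled and above 0 in the middle, and Pmvk alone filled, at 0.21, on the right.

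WT mouse 19622 lay outside the other 17 mice for 4 members. It had 179 CPM of Hmgcs1 against 239 to 393 in the others, 30.3 of Acat2 against 30.5 to 47.4, 0.503 of Fdps against 0.891 to 2.23, and 76.2 of Ggps1 against 48.6 to 59.4. Mvk (20.2), Pmvk (30.4), Mvd (17) and Idi1 (13.7) lay within the range of the others. Its sum of 6 oligodendrocyte markers was 10800 CPM, against 3370 to 7520 in the others. Its sum of 5 excitatory neuron markers was 428, against 3080 to 6080, and that of 4 microglia markers 107, against 200 to 373. The part of these differences in its values of the members was not tested. With it among the WT mice, the log2 fold change between knockout and WT mice turned from 0.04 to -0.05 for Ggps1 and from -0.15 to 0.04 for Fdps, and that of Hmgcs1 from -0.07 to 0.005, none of them called.

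Differences between the sexes were tested with a sex by genotype interaction in the same fit. In 17 mice 0 of 8 members and 0 of all genes passed the FDR threshold in edgeR in any comparison, with 3.32%, 4.05% and 1.79% of all genes at an unadjusted p under 0.05 for knockout against APP/PS1, APP/PS1 against WT and knockout against WT. Acat2 was the only member at that level, between APP/PS1 and WT mice, with a log2 fold change of 0.49 in females and 0.13 in males (difference, males minus females, -0.36, SE 0.12, FDR = 1). In APP/PS1 mice Acat2 had 45.3 ± 1.83 CPM in 3 females and 38.1 ± 4.34 in 3 males. WT females numbered 2 without 19622, which limits this test.

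The number of members above the median of the 17 mice was 1 to 7 of 8 in knockout, 2 to 7 in APP/PS1 and 2 to 5 in WT mice. It was 7 in APP/PS1 mice 19744 and 19723 and in knockout mouse 19720. The mean z-score over the 8 members (each gene scaled over the 17 mice, as log2 of CPM + 0.5) was -0.81 to 1.12 in APP/PS1 mice (median 0.37), -0.52 to 0.52 in knockout mice (median -0.32) and -0.43 to 0.12 in WT mice (median -0.33). The range in APP/PS1 mice thus covered those of the other genotypes, and both the lowest and the highest of the 17 mice were APP/PS1 mice.

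**Figure D4:**
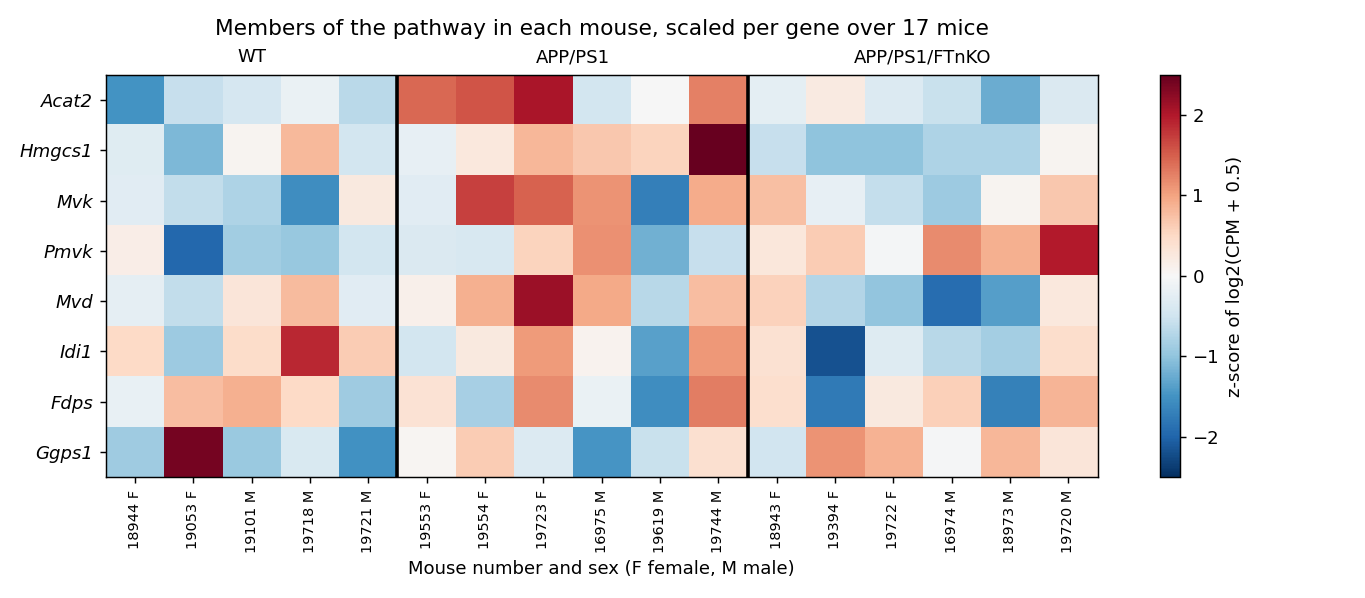
Z-scores of log2(CPM + 0.5) of the 8 members (rows) in 17 mice (columns, by genotype and sex), red above and blue below the mean of the gene. APP/PS1 mice 19744 and 19723 are red in most rows and APP/PS1 mouse 19619 blue in most, with mean z-scores of 1.01, 1.12 and -0.81.

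Of the 28 pairs of members, centred within genotype over 17 mice, 22 had a Pearson's r above 0 (median 0.31), and 0 passed an FDR of 0.05 in a two-sided permutation test of mice within genotypes. The closest pair was Mvd and Idi1, with r = 0.72 (p = 0.00198, FDR = 0.0554) and Spearman's rho = 0.70 (p = 0.00509, FDR = 0.0925), and with r = 0.62 without the 2 mice farthest from the median of Mvd. Hmgcs1 and Idi1 followed with r = 0.65 (permutation p = 0.00584, FDR = 0.0818), rho = 0.66 (permutation p = 0.00661, FDR = 0.0925) and r = 0.59 without 2 mice. Mvk and Mvd had r = 0.63 (permutation p = 0.0156, FDR = 0.145) and rho = 0.53 (permutation p = 0.0415, FDR = 0.166), and r = 0.52 without 2 mice. Acat2 and Hmgcs1, the members with the smallest p between APP/PS1 mice and each other genotype, had r = 0.10 (permutation p = 0.819, FDR = 0.819) and rho = 0.03 (permutation p = 0.916, FDR = 0.950) within genotypes. Ggps1 and Pmvk had the lowest value, r = -0.57 (permutation p = 0.0272, FDR = 0.152) and rho = -0.53 (permutation p = 0.0389, FDR = 0.166), and r = -0.53 without 2 mice.

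**Figure D5:**
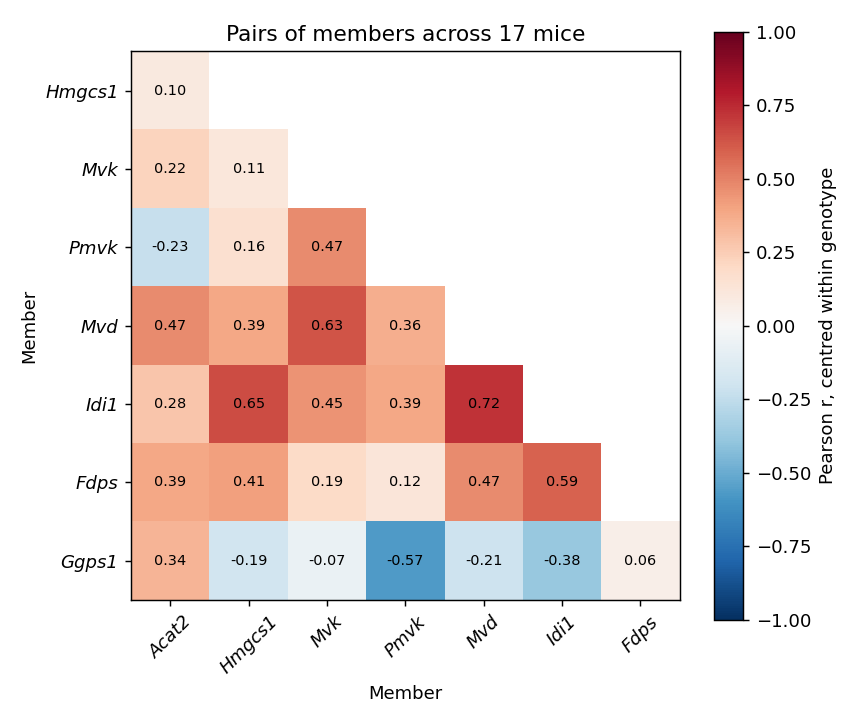
Pearson's r between members over 17 mice after centring within genotype, from blue (-1) to red (1). The pairs of Idi1 with Mvd (0.72) and Hmgcs1 (0.65) are the darkest red, and Ggps1 with Pmvk (-0.57) the darkest blue.

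Genes outside the 8 whose level was among the most like their mean z-score across the 17 mice were Msmo1 (r = 0.83), a sterol oxidase of the cholesterol branch, Idh1 (r = 0.81), the cytosolic isocitrate dehydrogenase, Ppp1r1a (r = 0.81), an inhibitor of protein phosphatase, and Gng12 (r = 0.79), a G protein subunit. With genotypes centred, r was 0.79, 0.84, 0.75 and 0.74 in the same order. These genes were picked from all tested genes for their r, which is a description of these 17 mice.

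The genes around the 8 members were described by 4 lists. Of 12 enzymes of the sterol branch, which leads from farnesyl pyrophosphate to cholesterol, 1 was called between knockout and APP/PS1 mice, Fdft1 (squalene synthase, log2 fold change -0.29, SE 0.06, FDR = 0.0471 in edgeR and 0.585 with all 18 mice). A further 7 of the 12 were lower at an unadjusted p under 0.05 and Tm7sf2, a sterol reductase, was higher (0.21, FDR = 0.218), and the median was -0.18. DESeq2 called 4 of the 12. Between APP/PS1 and WT mice all 12 estimates were above 0 (median 0.17), with Fdft1 (0.32, FDR = 0.0114) and Nsdhl, a sterol dehydrogenase (0.34, FDR = 0.00664), called. Between knockout and WT mice Tm7sf2 was called (0.44, SE 0.07, FDR = 0.00279) and the median was -0.03. Fdft1 takes farnesyl pyrophosphate into the sterol branch, so its row follows that of Fdps in the pathway.

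Of 17 genes that use isoprenoids outside the sterol branch (prenyl transferases, processing enzymes of prenylated proteins, and enzymes for dolichol, ubiquinone and haem A), 0 were called in edgeR in any comparison and the medians were -0.02, -0.01 and -0.01 in the order of the comparisons above, with 4, 2 and 6 at an unadjusted p under 0.05 and 0, 0 and 2 called by DESeq2. The smallest p between knockout and APP/PS1 mice were those of Pdss1, which makes the side chain of ubiquinone (0.24, SE 0.08, FDR = 0.241), and Fntb itself (-0.77, SE 0.26, FDR = 0.251). Of 7 neighbours of acetyl-CoA and HMG-CoA, 6 were tested and 0 called in edgeR in any comparison, with medians of -0.04, -0.01 and -0.05, with 1, 2 and 0 at an unadjusted p under 0.05 and 0 called by DESeq2 in each. Between knockout and APP/PS1 mice the smallest p were those of Acss2, which makes acetyl-CoA from acetate (0.14, SE 0.05, FDR = 0.291), and of Acly, which makes it from citrate (-0.09, SE 0.07, FDR = 0.641).

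Of 8 genes of sterol sensing and transport, 0 were called between knockout and APP/PS1 mice in edgeR, with 2 lower at an unadjusted p under 0.05 and a median of -0.02. Stard4, a cytosolic sterol carrier, had -0.38 (SE 0.11, FDR = 0.155, and 0.0463 in DESeq2) and Srebf2, the gene of SREBP-2, had -0.15 (SE 0.05, FDR = 0.218). Between APP/PS1 and WT mice 0 were called by edgeR or DESeq2 (median 0.03), with Stard4 higher at an unadjusted p under 0.05 (0.33, SE 0.12, FDR = 0.199). Between knockout and WT mice 0 were called by either tool and 0 had an unadjusted p under 0.05 (median -0.05).

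Markers of cell types moved with the genotypes in part, and their part in the values of the members was not tested. The summed CPM of 5 astrocyte markers ranged over 1060 to 1180 in WT mice, 1340 to 2540 in APP/PS1 mice and 1180 to 2230 in knockout mice, with 1 of 5 called in edgeR against WT in each. For 4 microglia markers it was 209 to 240, 261 to 373 and 200 to 305, with 2 of 4 called as higher between APP/PS1 and WT, and 0 between knockout and WT. For 3 markers of plaque-associated microglia it was 0.244 to 1.01, 24.3 to 85.6 and 11.3 to 64.2, with 3 of 3 called higher than in WT mice in both. None of the markers named in these sums was called between knockout and APP/PS1 mice. The 6 oligodendrocyte markers, from cells that make much sterol, summed to 3730 to 5670, 3370 to 6930 and 4720 to 7520 CPM, with the 3 genotypes overlapping. The 5 excitatory neuron markers summed to 4340 to 6080, 3750 to 5880 and 3080 to 4820 CPM, with 1 of 5 called, lower in knockout than in WT mice. Between knockout and APP/PS1 mice the median log2 fold change was -0.10 over the astrocyte, -0.23 over the microglia, -0.32 over the plaque-associated, 0.03 over the oligodendrocyte and -0.11 over the excitatory neuron markers. In the same order the medians were 0.17, 0.40, 5.47, 0.05 and -0.15 between APP/PS1 and WT mice. Between knockout and WT mice they were 0.15, 0.17, 5.25, 0.01 and -0.25. None of these 23 markers was at 0 in all mice of a genotype.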

How the data were processed

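Frontal cortical mRNA of 18 mice had been sequenced by the authors as stranded paired-end libraries with reads of 150 bases. Per the labels, the authors trimmed reads with Trimmomatic 0.33, aligned them with HISAT2 2.1.0 and counted them per gene with featureCounts. The genome was GRCm38 by the study's methods. The sources used here do not give the annotation or the strand, overlap and multi-mapping settings of the counting. The deposited values are raw read counts per gene without normalization, and 0 columns were unused. Some genes of the pathway, the lists and the markers are not reported here, and the counts leave them out.

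The main test was the quasi-likelihood F test of edgeR 4.0.16 in R 4.3.3, on 17414 genes that passed filterByExpr (minimum count 10) in 17 mice, scaled by TMM, with sex and genotype as terms and the 3 genotypes in 1 fit. P-values were adjusted over all genes after Benjamini and Hochberg, with a threshold of 0.05. The study used DESeq2, which is an alternative here. SE is the absolute log2 fold change divided by the square root of F, and 95% intervals use the t quantile on the fit's total degrees of freedom. CPM are scaled by the TMM factors of the 17 mice, and those of 19622 by the factors of the fit with 18. Per-kb levels divide by the union of exons of GENCODE vM21. Pairs used 100000 permutations. Each sample is labelled as 1 mouse, so p-values measure the spread between mice. Counting error (coefficient of variation) was 18.1% to 18.7% for Fdps and 1.36% to 1.43% for Hmgcs1 by genotype.

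Alternatives were DESeq2 1.42.0 (17 or 18 mice), limma-voom (limma 3.58.1), RLE scaling, no filter, a minimum count of 50, a robust spread, no sex term, RIN as a covariate, mice with RIN of 8 or more, a fit of the compared genotypes alone, and the removal of each mouse in turn. The sum of Fdps with its pseudogenes, and DESeq2 fitted to the compared genotypes alone, were added after seeing the data. On simulated counts for knockout against APP/PS1 with 200 of 17414 genes changed, edgeR recovered 69.5% with 0.714% of calls false, and DESeq2 73.5% with 14.5% false. The members, lists and motifs were chosen with earlier results of these data known. Named genes are the 8 members, Fntb, App and Prnp as checks of the labels, of each list the called genes or else those with the 2 smallest p between knockout and APP/PS1 mice, and 4 of the 5 genes most like the members. Tm7sf2 among the sterol enzymes of that comparison, and the pseudogenes and overlapping genes, were named with their values in view.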

Additional observations from a re-analysis of the deposited data

Results flagged for a closer look

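Hmgcs1 in APP/PS1 mouse 19744, a male, was 393 CPM, against 268 to 304 in the other 5 APP/PS1 mice, and lay farther from them than Dixon's 95% critical value allows. It was the only 1 of 24 groups (8 members in 3 genotypes, WT with all 6 mice) with such a sample, and chance flags about 1 group in 20. The log2 fold change of Hmgcs1 without this mouse was -0.21 between knockout and APP/PS1 mice and 0.13 between APP/PS1 and WT mice.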

How the results depend on the processing

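The estimates for Acat2, Hmgcs1 and Mvd between knockout and APP/PS1 mice kept their sign in each of the 13 alternatives and with each of the 17 mice left out (Acat2 -0.30 to -0.23, Hmgcs1 -0.30 to -0.21, Mvd -0.41 to -0.27), while calls at an FDR of 0.05 did not hold across tools. In that comparison the number of called members, 0 in edgeR, was 2 with DESeq2 on 17 mice and on only the genotypes compared (Acat2 and Hmgcs1), 0 with DESeq2 on 18 mice (FDR = 0.186 and 0.375), and 1 with no filter (Hmgcs1, FDR = 0.0474) and with RIN as a covariate (Hmgcs1). It was 0 to 1 with each mouse left out. DESeq2 had 14.5% false calls on simulated data, against 0.714% for edgeR. Between APP/PS1 and WT mice it was 1 (Acat2) with all 18 mice, with DESeq2 on 17, on 18 or on only the genotypes compared, with no filter, with the stricter filter and with no sex term, and 0 to 1 with each mouse left out (1 without APP/PS1 mouse 16975, APP/PS1 mouse 19619 or knockout mouse 18973). Between knockout and WT mice it was 1 (Pmvk) with DESeq2 on 17, on 18 or on only the genotypes compared, and 0 with each mouse left out. The cause of these differences was not tested. Shares of all genes called are given above for edgeR and DESeq2 on 17 mice, and for edgeR on all 18 between APP/PS1 and WT mice. For the other settings they are not given, so those counts describe calls and are no result about the members as a set. The counts for the interaction and for the pairs were 0 with 18 mice too.

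Signs turned only in estimates that were not called. With all 18 mice, Fdps was 0.152 between APP/PS1 and WT mice (0.148 in DESeq2), and between knockout and WT mice Fdps was 0.037 (0.031), Hmgcs1 0.005 (0.001) and Ggps1 -0.050 (-0.053). Between APP/PS1 and WT mice Ggps1 was 0.002 with the stricter filter, 0.001 with no sex term, 0.016 with RIN as a covariate and 0.005 with RIN of at least 8, and Fdps was 0.066 with RIN of at least 8 and 0.194 when summed with its pseudogenes. With each mouse left out, Fdps was -0.232 to 0.019 between knockout and APP/PS1 mice and -0.178 to 0.086 between APP/PS1 and WT mice, Ggps1 -0.027 to 0.049 between APP/PS1 and WT mice, and Acat2 -0.028 to 0.066 between knockout and WT mice. No paired analysis was possible because the labels give no replicate numbers shared between genotypes. Fdps, with 10 to 41 reads per mouse, limits what can be said of the last shared step.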
